A study of Homo sapiens with 6 samples.

Results

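Syndecans, the adaptor syntenin and the tetraspanins CD63, CD81 and CD9 were followed in cultures of SNU-398, a cell line from a human hepatocellular carcinoma. The 10 genes are SDCBP, SDCBP2, SDC1, SDC2, SDC3, SDC4, PDCD6IP, CD63, CD81 and CD9. They were taken by the gene annotation of the probe sets, groups of array probes summarised into 1 value, and 9 of the 10 matched a probe set, 1 each, beside 18404 genes measured in all. The genes were chosen by measured values, a lower SDCBP and a higher CD63 in the 1 contrast of the study, so the values of all its genes in that contrast are given as a description, without a test. The 7 genes SDCBP, SDC1, SDC2, SDC3, CD63, CD81 and CD9 have a probe set of their own. The probe set of SDCBP2 is also annotated to the readthrough transcript FKBP1A-SDCBP2 and that of SDC4 also to ROS1, so these 2 are given as values of the probe set. PDCD6IP, which encodes ALIX, enters only through its promoter window, and its expression is not analysed here.

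Total RNA of 6 SNU-398 cultures was hybridized to Affymetrix arrays, 3 from cells carrying a scrambled short hairpin RNA (shRNA) and 3 from cells carrying one that targets SALL4, which encodes an oncofetal transcription factor with zinc fingers. The 2 groups share the cell line and, per the labels, the culture conditions; the labels give no time after treatment and no rescue, so effects of reduced SALL4 and other effects of the hairpin cannot be told apart. The labels call the 3 arrays of a group biological replicates without naming separate passages or clones.

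Syndecans are transmembrane proteoglycans whose heparan sulfate chains bind growth factors and matrix proteins. Their short cytoplasmic tails end in a motif that binds the PDZ domains of syntenin, and syntenin in turn binds ALIX, an accessory protein of the ESCRT membrane-scission machinery. Together they are known to drive the budding of small vesicles into endosomes, which are released as exosomes. CD63, CD81 and CD9 are tetraspanins, membrane-spanning proteins that gather partner proteins into microdomains and are widely used as exosome markers; CD63 cycles through late endosomes and lysosomes, whereas CD81 and CD9 lie mainly at the plasma membrane.

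Promoter windows are shown for CD63 and CD9 because both genes were higher on all 3 SALL4 shRNA arrays. Each window runs from 250 bases before to 50 bases after a transcript start in RefSeq (GRCh38.p14) and is the first of the windows listed for that gene, 8 for CD63 and 4 for CD9. The CD63 window is chr12:55728960-55729259 on the minus strand and the CD9 window chr12:6199696-6199995 on the plus strand. Capitals mark CACGTG, the E-box read by MYC-MAX and the MiT/TFE factors, and TGANTCA, the AP-1 site.
CD63: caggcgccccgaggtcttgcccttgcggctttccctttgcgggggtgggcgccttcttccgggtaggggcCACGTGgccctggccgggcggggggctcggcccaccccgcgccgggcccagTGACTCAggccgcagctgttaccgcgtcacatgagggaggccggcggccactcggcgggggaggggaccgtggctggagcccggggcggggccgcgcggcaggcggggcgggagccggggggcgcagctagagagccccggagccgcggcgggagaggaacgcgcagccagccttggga
CD9: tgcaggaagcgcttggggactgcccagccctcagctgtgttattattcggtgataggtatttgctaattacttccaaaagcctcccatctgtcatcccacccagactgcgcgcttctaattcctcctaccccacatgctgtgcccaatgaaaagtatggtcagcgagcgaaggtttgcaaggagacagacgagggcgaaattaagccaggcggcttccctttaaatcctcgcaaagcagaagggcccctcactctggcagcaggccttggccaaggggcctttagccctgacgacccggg
In the CD63 window an E-box began 180 bases and an AP-1 site 129 bases before the start. The CD9 window held neither. Over the first window of 27305 genes, 7.43% held CACGTG and 7.76% held TGANTCA. Another motif, ATATT, was searched because the C-terminal zinc fingers of SALL4 are known to bind short AT-rich sequences, and 23.6% of the first windows held it. None of the 8 CD63 and 4 CD9 windows did. Some of the CD63 windows overlap each other. G and C made up 45.0% to 78.3% of the bases of the CD63 and CD9 windows, and the part of base content in the absence of ATATT was not tested. All motifs were searched on both strands, and in the printed windows no match overlapped another. Windows of 7 of the 10 genes were searched, 20 in all, and no window of SDCBP, SDC2 or CD81 was searched. The E-box was in 2 of the 20 (CD63 and PDCD6IP), the AP-1 site in 2 (CD63 and SDCBP2) and ATATT in 2 (PDCD6IP and SDCBP2).

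The targeted gene was lower in the SALL4 shRNA group. SALL4 intensity was 294 ± 36.8 (SD, n = 3) with the scrambled and 119 ± 1.67 (SD, n = 3) with the SALL4 shRNA, and the limma adjusted p was 0.0112 in the filtered fit described with the processing. Array medians lay between 47.85 and 51.69, and between 15.52% and 16.91% of values sat at the table's floor of 10, below which no level is given. On the second principal component, 19.8% of the variance, scrambled replicate 3 (-19.3) and SALL4 shRNA replicate 2 (-23.4) lay apart from the other arrays (1.8 to 16.9), so values without these 2 are given too. Of the hepatocyte markers, ALB (10.13 to 12.78) and AFP (10.62 to 17.76) were near the floor on all arrays, while the oncofetal proteoglycan gene GPC3 was at 119 to 165. In all, 5 of 9 measured hepatocyte and hepatoma markers reached an intensity of 32 in at least 1 group, against 3 of 10 blood and platelet markers, 0 of 5 endothelial and 7 of 7 fibroblast markers. PTPRC, the leukocyte common antigen, was at the floor on all 6 arrays. The summed intensity of the fibroblast markers was 1429 to 1565 with the scrambled and 1105 to 1469 with the SALL4 shRNA, and the sum rests largely on LUM, which overlapped. Of the single markers, DCN was at 183, 215 and 187 against 80.8, 63.7 and 106, and COL3A1 at 408, 263 and 372 against 243, 230.13 and 231, both lower on every SALL4 shRNA array. COL1A2, at 57.8, 58.0 and 47.1 against 90.8, 63.9 and 76.7, was higher on every one. The part of such expression in the results was not tested. The summed blood and platelet markers were at 231 to 265 and 242 to 252.

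Among the 9 probe sets, 3 had groups that did not overlap: SDCBP, which was lower with the SALL4 shRNA, and CD63 and CD9, which were higher. Groups did not overlap in 22.4% of the 13711 genes of the filtered fit, 11.4% of them higher and 11.0% lower with the SALL4 shRNA. The other 6 probe sets, those of the 4 syndecans, of SDCBP2 and of CD81, overlapped and differed by at most 0.19 on the log2 scale. The 7 genes with a probe set of their own had a median difference of 0.14, beside 0.015 for all genes tested. That median is the value of CD81, which was smaller than its SE of 0.18, and the set was picked on this contrast. The values are averages over whole cultures, so fewer expressing cells and less RNA per cell cannot be told apart.

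**Figure D1:**
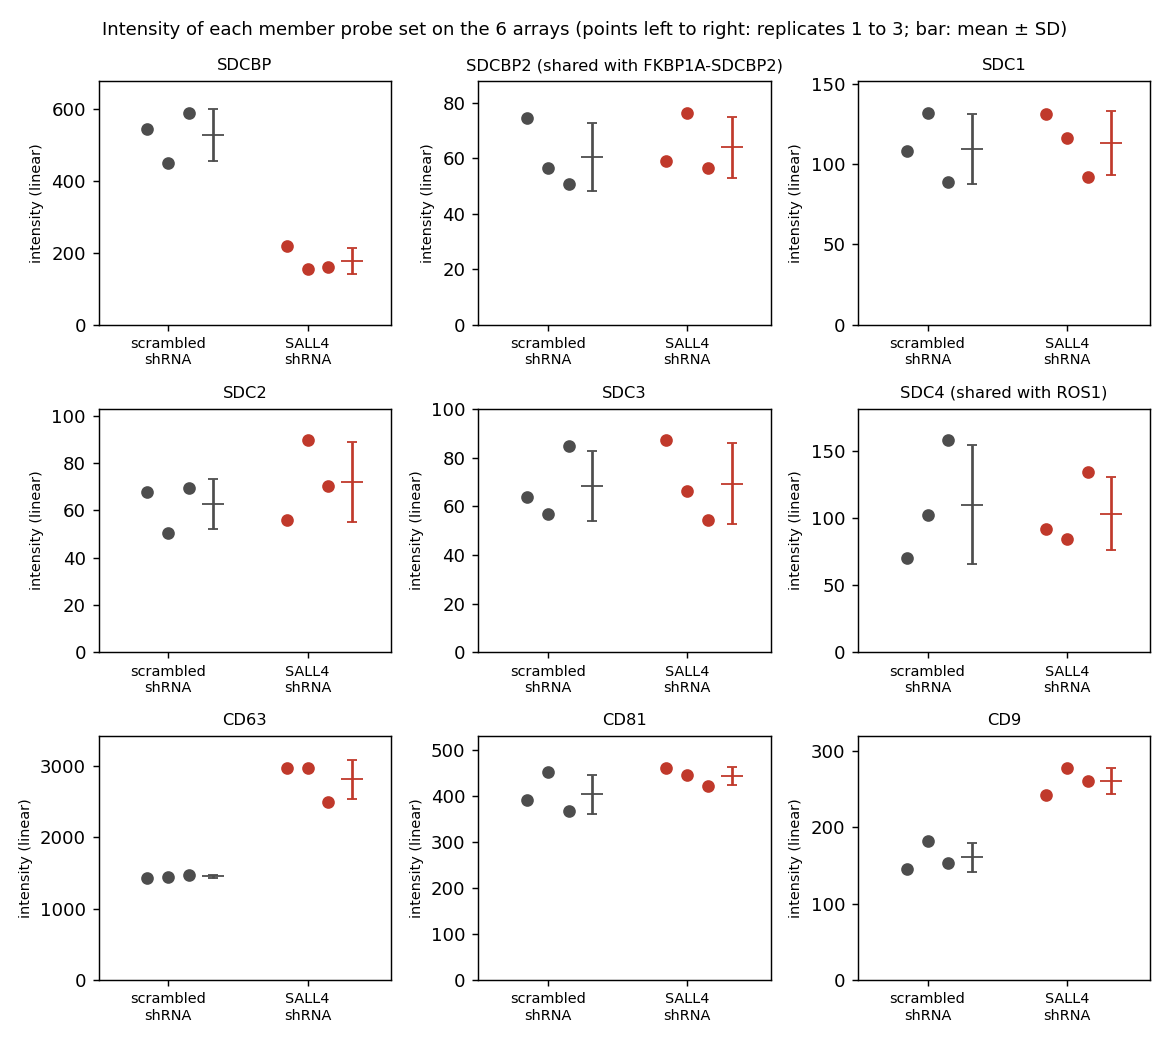
Intensity on a linear scale from 0 for the 9 probe sets on each of the 6 arrays. Points are replicates 1 to 3 from left to right and bars the mean ± SD of 3 arrays; SDCBP lay between 153 and 217 with the SALL4 shRNA against 449.51 to 589 with the scrambled shRNA, and CD63 and CD9 lay above all their scrambled arrays.

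SDCBP encodes syntenin-1, the adaptor that links syndecan tails to ALIX. Its intensity was 544, 449.51 and 589 on the scrambled arrays and 217, 153 and 159.74 on the SALL4 shRNA arrays. Every SALL4 shRNA array was below every scrambled array, and the 2 closest arrays still differed 2.07-fold. The means were 528 ± 71.4 and 177 ± 35.3 (SD, n = 3 each), and the log2 difference was -1.59 ± 0.21 (SE), or 33.3% of the scrambled level. It lay between -1.74 and -1.49 when any 1 array was left out and was -1.41 ± 0.24 (SE) without the 2 arrays that lay apart.

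SDCBP2 encodes syntenin-2, a paralogue with the same tandem PDZ layout. The probe set it shares with FKBP1A-SDCBP2 was at 74.3, 56.4 and 50.65 with the scrambled and at 58.85, 76.4 and 56.5 with the SALL4 shRNA. The groups overlapped, and the log2 difference was 0.086 ± 0.22 (SE). The highest of the 6 values was on SALL4 shRNA replicate 2 and the lowest on scrambled replicate 3, so this probe set did not separate the groups as that of SDCBP did.

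Among the syndecans, SDC1, the main syndecan of epithelial cells and hepatocytes, was at 108, 132 and 88.8 on the scrambled arrays and at 132, 116 and 91.9 on the SALL4 shRNA arrays. Both groups spanned nearly the same range, and the log2 difference was 0.049 ± 0.22 (SE). SDC2, the syndecan of mesenchymal cells, was at 67.8, 50.6 and 69.7 with the scrambled shRNA and at 56.1, 89.7 and 70.6 with the SALL4 shRNA. Its highest value was on SALL4 shRNA replicate 2, and the log2 difference was 0.19 ± 0.22 (SE).

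SDC3, a syndecan known best from neural tissue, was at 63.8, 56.9 and 84.8 with the scrambled and at 87.2, 66.5 and 54.6 with the SALL4 shRNA. The highest and the lowest of these 6 values were both on SALL4 shRNA arrays, and the log2 difference was 0.013 ± 0.23 (SE). The probe set shared by SDC4, the syndecan of focal adhesions, and ROS1, a receptor tyrosine kinase gene, was at 70.1, 102 and 158 on the scrambled arrays. It was at 91.8, 84.2 and 134 on the SALL4 shRNA arrays, a log2 difference of -0.043 ± 0.32 (SE). This was the most variable probe set of the 9, with a 2.25-fold range among the scrambled arrays alone. Its difference went from -0.33 to 0.26 as single arrays were left out and was 0.39 ± 0.30 (SE) without the 2 arrays that lay apart.

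CD63 is the tetraspanin of late endosomes and multivesicular bodies. Its intensity was 1429, 1449 and 1479 on the scrambled arrays, within 1.03-fold of each other, and 2977, 2970.35 and 2501 on the SALL4 shRNA arrays. The groups did not overlap and the 2 closest arrays differed 1.69-fold. The group means were 1452 ± 24.9 and 2816 ± 273 (SD, n = 3 each). The log2 difference was 0.95 ± 0.18 (SE), or 1.93-fold. Without any 1 array the difference lay between 0.91 and 1.03, and without the 2 arrays that lay apart it was 0.92 ± 0.22 (SE).

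CD9, a tetraspanin of the plasma membrane that associates with integrins, was at 146, 183 and 153 on the scrambled arrays and at 243, 278 and 261 on the SALL4 shRNA arrays. The groups did not overlap, with 1.33-fold between the 2 closest arrays. The log2 difference was 0.70 ± 0.18 (SE), or 1.63-fold, with means of 161 ± 19.3 and 261 ± 17.45 (SD, n = 3 each). It lay between 0.64 and 0.80 without any 1 array and was 0.63 ± 0.23 (SE) without the 2 arrays that lay apart.

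CD81, the tetraspanin that serves as a coreceptor in B cells and for hepatitis C virus, was at 393, 452 and 369 with the scrambled and at 462, 447 and 423 with the SALL4 shRNA. Scrambled replicate 2 lay among the SALL4 shRNA arrays, so the groups overlapped, and the log2 difference was 0.14 ± 0.18 (SE). Relative to CD81 on the same array, the log2 ratio was higher with the SALL4 shRNA by 0.81 for CD63 and by 0.57 for CD9. The SD of these log2 ratios was 0.16 and 0.083 among the scrambled and 0.087 and 0.14 among the SALL4 shRNA arrays. The log2 ratio of CD63 to CD9 differed by 0.25, with an SD of 0.17 and 0.18 within the groups, which overlapped, so these 2 genes are not shown to differ by unequal amounts.

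**Figure D2:**
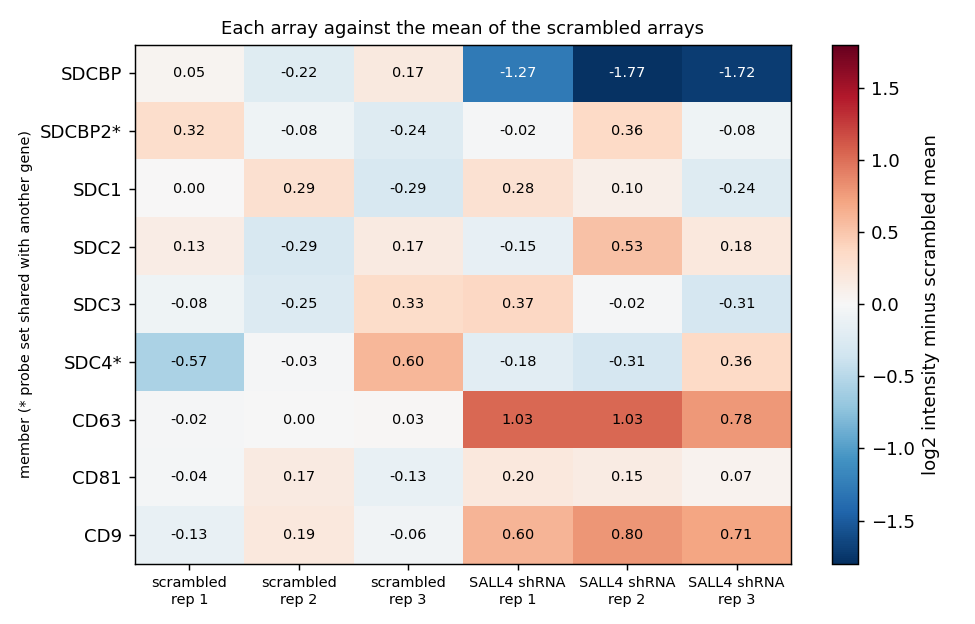
Log2 intensity of each probe set on each array minus the mean of the 3 scrambled arrays, with colours from blue (lower) to red (higher); an asterisk marks a probe set shared with another gene. SDCBP was at -1.27, -1.77 and -1.72 on the SALL4 shRNA arrays and CD63 at 1.03, 1.03 and 0.78, while the rows of the syndecans hold both signs in both groups.

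Within the SALL4 shRNA group the arrays ran in reverse order in SDCBP and CD9. Replicate 1 had the highest SDCBP and the lowest CD9 of its group, and replicate 2 the lowest SDCBP and the highest CD9. CD63 did not follow that order, as it was nearly equal on replicates 1 and 2 (2977 and 2970.35) and lowest on replicate 3 (2501).

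**Figure D3:**
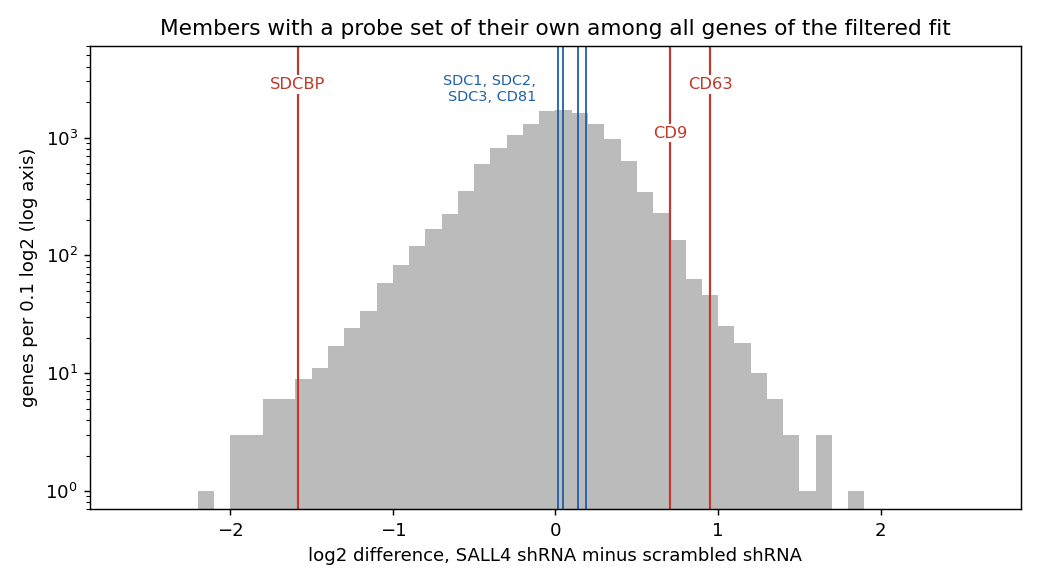
Histogram of the log2 difference, SALL4 shRNA minus scrambled, of the 13711 genes in the filtered fit, in bins of 0.1 with a log count axis. Red lines mark SDCBP (-1.59), CD9 (0.70) and CD63 (0.95), which lie in the tails, and blue lines SDC3, SDC1, CD81 and SDC2 (0.013 to 0.19), which lie near the median of all genes (0.015). The set was chosen for the values of SDCBP and CD63 in this contrast.

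The genes whose values over the 6 arrays were most like those of SDCBP were NENF, which encodes the secreted protein neudesin (Pearson r of log2 values 0.9963), RMDN2, a microtubule-associated protein gene (0.9943), and EIF2AK4, the amino acid sensing kinase GCN2 (0.9937). NENF was at 531, 481 and 598 with the scrambled and at 269.94, 197 and 227 with the SALL4 shRNA. Those most like CD63 were IFI30, a thiol reductase gene (0.9938), ACP2, an acid phosphatase gene (0.9937), and ANXA5, which encodes the phospholipid-binding annexin A5 (0.9935). IFI30 was at 70.3, 73.5 and 85.1 with the scrambled and at 199.58, 196 and 148 with the SALL4 shRNA, with the lowest value of the latter group on replicate 3, as for CD63. These correlations rest on 6 arrays that fall into 2 groups. They were picked as the highest among the 13711 genes, less the members and the symbol types named with the processing, so they describe the arrays only.

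Genes that work with this system were examined as 9 lists of 165 genes outside the set, of which 158 were measured and 136 were in the filtered fit. In that limma fit 1 gene of the 136 rose, 0 fell and 135 did not pass, or 0.735% called against 1.6% of all 13711 genes, of which 0.547% rose and 1.06% fell. Groups did not overlap in 27 of the 136, or 19.9% against 22.4% of all genes. At an unadjusted p under 0.05 there were 17, of them 11 higher and 6 lower, or 12.5% against 16.9% of all genes. The median log2 difference of the 136 was 0.053, beside 0.015 for all genes.

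The gene that rose was TIMP1, a secreted metalloproteinase inhibitor known as a ligand of CD63. Its call was already known when the lists were made, so its passing here is not an independent result. Its intensity was 990.26, 747 and 881 with the scrambled and 2028, 2293 and 2044 with the SALL4 shRNA, so each SALL4 shRNA array was above each scrambled array. Limma gave a log2 difference of 1.29 ± 0.19 (SE) and an adjusted p of 0.0112, which was 0.0303 to 0.0482 when 1 array was left out. Without the 2 arrays that lay apart the limma adjusted p was 0.0764. The other 9 tested genes of CD63 sorting, which include the AP-3 adaptor that carries CD63 to lysosomes and the LAMP proteins, did not pass. With TIMP1 counted, 8 of the 10 had a positive difference. The median of the 10 was 0.29, beside 0.015 for all genes. LAMP2, a lysosomal membrane protein named here after its values were seen, was at 465, 448 and 402 with the scrambled and at 634, 694 and 748 with the SALL4 shRNA, a log2 difference of 0.66 ± 0.18 (SE; limma adjusted p 0.0829).

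Of the other tetraspanins, 21 were tested by limma and 0 passed. Their median was 0.039, with 11 positive and 10 negative differences. At an unadjusted limma p under 0.05 there were 4 of the 21, all with positive differences, beside 16.9% of all genes. TSPAN15, which escorts the protease ADAM10 to the cell surface, was at 43.2, 61.8 and 44.4 with the scrambled and at 84.5, 94.7 and 79.8 with the SALL4 shRNA (0.81 ± 0.20, SE; limma adjusted p 0.0658). TSPAN6, a tetraspanin known to bind syntenin, was at 220.23, 262 and 231 and at 427, 407 and 349 (0.73 ± 0.18, SE; limma adjusted p 0.0696). In both genes, named as the 2 largest differences of the list, the groups did not overlap. That held for 4 of the 21 tetraspanins, beside 22.4% of all genes. Of 15 partner proteins of tetraspanins, 0 passed limma, also at an unadjusted p under 0.05; the interferon-induced gene IFITM3 (0.46 ± 0.35, SE) and the lipid kinase gene PI4K2A (-0.43 ± 0.24) had the largest differences and overlapped.

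In the ESCRT machinery, which sorts cargo and severs the neck of budding vesicles, 0 of 29 genes passed limma, 3 had an unadjusted p under 0.05 and the median was 0.10. VPS37A, a subunit of ESCRT-I, was at 537, 377 and 444 with the scrambled and at 261, 164 and 259 with the SALL4 shRNA, with no overlap (-1.005 ± 0.23, SE; limma adjusted p 0.0529). VPS4A, the ATPase that disassembles ESCRT-III, was at 217, 226 and 271 and at 162, 152 and 164 (-0.57 ± 0.18, SE; limma adjusted p 0.129). The ESCRT-III protein gene IST1, named after its values were seen, had the opposite sign (0.57 ± 0.19, SE; limma adjusted p 0.144).

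Limma called 0 of 10 genes of the ARF6, PLD2 and SRC control of syntenin budding, with 2 at an unadjusted p under 0.05. These were the ARF exchange factor gene CYTH3 (0.61 ± 0.23, SE; limma adjusted p 0.197) and the phospholipase gene PLD1 (0.48 ± 0.22; limma adjusted p 0.29). It also called 0 of 19 genes of exosome docking and release, with 2 at an unadjusted p under 0.05. These were the flotillins, membrane raft scaffold proteins often found on exosomes, which had opposite signs, FLOT2 at 0.54 ± 0.19 (limma adjusted p 0.176) and FLOT1, named after its values were seen, at -0.52 ± 0.22 (limma adjusted p 0.257). The RAB27 effector gene EXPH5 had the largest difference of this list, -0.59 ± 0.28 (SE; limma adjusted p 0.3), with overlapping groups.

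On the syndecan side limma also called 0 genes in each of 3 lists. Of 13 other heparan sulfate proteoglycan cores, 2 had an unadjusted p under 0.05, SPOCK1 (-0.55 ± 0.19, SE; limma adjusted p 0.171) and the glypican gene GPC6 (-0.51 ± 0.20; limma adjusted p 0.223). Of 7 genes that shed syndecans or trim their chains, 1 did, the heparanase gene HPSE, at 27.1, 34.9 and 37.0 with the scrambled and at 48.6, 49.4 and 38.3 with the SALL4 shRNA (0.47 ± 0.20; limma adjusted p 0.268). The membrane protease gene MMP16 was at -0.30 ± 0.20. Of 12 cytoplasmic partners of syndecans, 1 did, FERMT2, which encodes the integrin activator kindlin-2. It was at 1866, 1603 and 2203 with the scrambled and at 1238, 671 and 1174 with the SALL4 shRNA, with no overlap (-0.92 ± 0.25, SE; limma adjusted p 0.0814), and the GTPase gene RAC1 was at -0.56 ± 0.53.

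**Figure D4:**
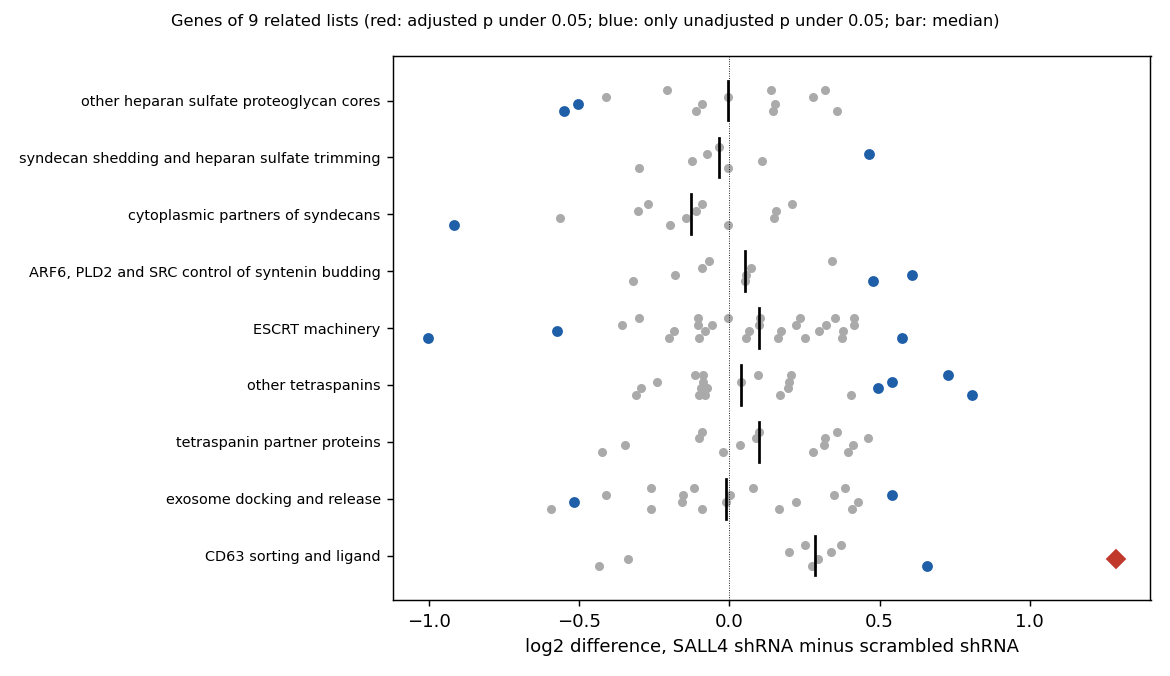
Log2 difference, SALL4 shRNA minus scrambled, of each tested gene in the 9 lists; black bars are list medians, blue points have only an unadjusted limma p under 0.05 and the red diamond, TIMP1 at 1.29, an adjusted p under 0.05. The list medians lie between -0.13 and 0.29.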

How the data were processed

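Per the submitters' processing notes, RMA, which corrects background, normalizes arrays and summarises probes, was used; neither its version nor any step after it is stated in the sources at hand. The authors deposited linear intensity values of 32319 probe sets with a floor of 10, so changes of dim genes are understated, and log2 was taken here. Of the probe sets, 19158 had 1 gene symbol in the platform annotation, 1388 several and 11773 none listed. For 19128 of those with 1 symbol, the symbol was taken from RefSeq by Entrez identifier, whether or not it differed. The brightest probe set stood for each of 18404 genes. Limma 3.58.1 in R 4.3.3 (lmFit, eBayes, two-sided, Benjamini-Hochberg adjustment, threshold 0.05) compared the groups over 13711 genes, those whose log2 intensity averaged at least 5 in at least 1 group (the filtered fit); it was also tested on simulated data. All 7 members with a probe set of their own were in it, each in both groups above that minimum; the shared probe sets of SDCBP2 and SDC4 take their SE from a filtered fit of all 20316 probe sets. Differences are SALL4 shRNA minus scrambled. The SEs and p-values of limma are moderated. In the filtered fit eBayes draws the variance of each gene towards a value shared by all genes, with 8.01 prior degrees of freedom. The SE of a gene can therefore differ from the spread of its own arrays, and having 3 arrays a group limits the precision.

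The members, lists and fit were chosen with earlier results of these data known, among them the call of TIMP1. Named are the members, SALL4, TIMP1, and per list up to 4 genes that passed or else the 2 largest differences. For SDCBP and CD63 the 3 genes of highest correlation are also named. Left out of that choice were members, clone names, small RNAs, antisense and intronic transcripts, and LOC, LINC, KIAA, FLJ and open reading frame (orf) symbols. Promoter sequences are from RefSeq, GRCh38.p14. Alternatives changed the filter, the variance model, the probe set rule, the normalization, the floor, the replicate block and the arrays included.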

Additional observations from a re-analysis of the deposited data

How the results depend on the processing

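The filtered limma fit called 220 genes, 75 higher and 145 lower. The count was 0 with no filter (2864 at an unadjusted p under 0.05, lowest adjusted p 0.0805), 0 with values under 32 raised to 32 (2282 and 0.0562), 10 with all probe sets, 363 with a filter at log2 6 and 500 with trend and robust settings. It was 39 to 103 without any 1 array and 15 without scrambled replicate 3 and SALL4 shRNA replicate 2. The pathway lists had 1 call in the filtered fit and in each fit without 1 array. They had 0 with no filter, 0 with the higher floor, 0 with all probe sets and 0 without the 2 arrays, 2 with quantile normalization, 4 with the filter at log2 6 and 5 with trend and robust settings. VPS37A passed in the last 3 of these (limma adjusted p 0.0441, 0.0383 and 0.0195), TSPAN6 with the filter at log2 6 and the trend and robust settings (0.0492 and 0.0351), TSPAN15 with the former (0.0459), and FERMT2 and LAMP2 with the latter (0.0315 and 0.0338). SALL4 and TIMP1 missed the threshold in 4 of the 16 alternatives. Their limma adjusted p was 0.0946 each with no filter and 0.0752 and 0.0982 with the higher floor. It was 0.0535 each with all probe sets and 0.0724 and 0.0764 without the 2 arrays.

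Replicate numbers are shared between the groups, but deviations of same-numbered arrays correlated at 0.003, -0.083 and -0.039, so the numbers were not taken as pairs; with a replicate block the count was 41 and the pathway lists had 1 call. SDCBP, CD63 and CD9 kept their sign in all 16 alternatives and moved by less than the larger SD of their groups. Most alternatives could not have changed the sign. Those of the filter, variance model, probe set rule, floor and replicate block left the differences of these genes as they were. Leaving out arrays cannot reverse the sign where groups do not overlap. Quantile normalization could have, and gave -1.59 for SDCBP, 0.85 for CD63 and 0.71 for CD9. SDCBP and CD63 were also chosen for these signs. SDC2 and CD81 stayed positive without any 1 array, while SDC1, SDC3 and the shared probe sets of SDC4 and SDCBP2 changed sign without at least 1.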
